A study of Sus scrofa with 12 samples.

Results

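Mitochondrial ribosomal protein genes, named MRPL or MRPS, were followed in pig skeletal muscle over the first day after slaughter. Members were the probe sets whose single gene symbol in the platform annotation starts with MRPL or MRPS, and each gene was represented by its brightest probe set over the 12 arrays. This gave 58 genes, 36 MRPL and 22 MRPS, of 6765 genes with a single symbol, measured by 77 of the 23999 probe sets that are not controls. RefSeq lists 77 MRPL and MRPS symbols for the pig, so 19 of them, among them MRPL12, MRPL22 and MRPS18B, are not described here. The groups were muscle at 20 min, 2 h, 6 h and 24 h after death. At each time the same 3 female pigs of a commercial hybrid gave 1 portion each of semimembranosus, a large hind leg muscle, taken from the left leg. All had been stunned with CO2 at 87% and weighed about 160 kg, and the carcasses were chilled towards 4 °C, so that time after death and cooling cannot be told apart. Each portion was hybridised to 1 one-colour Affymetrix array, and levels are log2 intensities.

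Mitochondria translate the few proteins encoded in their own genome, all subunits of the oxidative phosphorylation complexes, on ribosomes of their own. All protein parts of these ribosomes are encoded in the nucleus, made in the cytosol and imported. Part of them descend from bacterial ribosomal proteins and part exist in mitochondria only. The mammalian large subunit carries a mitochondrial tRNA where the cytosolic ribosome has 5S rRNA, and in the pig this is the tRNA for phenylalanine. Muscle, rich in mitochondria, depends on this machinery, and defects of several of its proteins cause heart and muscle disease in humans.

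All 13 measured fibre markers of the 16 listed, such as CKM and MYL2, lay between 13.17 and 14.54 log2 on every array, as the label skeletal muscle implies. Array medians lay between 5.89 and 5.94, and every member's brightest probe set was brighter than the dimmest 40% of probe sets. Of 10 markers of macrophages and leukocytes 7 were measured, and in pigs 1, 2 and 3 their mean level was 6.52, 6.28 and 6.94 at 20 min and 6.15, 5.90 and 5.53 at 24 h, with 6.23 to 6.76 at 2 h and 6 h. Pig 3 thus held both the highest array, at 20 min, and the lowest, at 24 h. The markers did not move alike: at 24 h against 20 min 4 of the 7 were lower and 2 were higher in all 3 pigs. Their mean changes ran from -1.63 to 0.22 log2. The 7 of 8 measured fibroblast and matrix markers had means of 9.91, 9.64 and 10.38 at 20 min, the last being the highest of all arrays, and of 9.64 to 10.03 at 24 h. In whole muscle, fewer cells of a type and less RNA per cell cannot be told apart.

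Transcripts of the mitochondrial ribosome, like those of most genes on the array, stayed within narrow limits over the day. In limma's moderated test with pig as a block, 0 of 58 members passed an adjusted p of 0.05 at 2 h, 6 h or 24 h against 20 min. The background was 0% of probe sets at 2 h and at 6 h and 0.00417%, or 1 probe set, at 24 h. The smallest adjusted p of a member was 0.624 at 2 h, 0.513 at 6 h and 0.294 at 24 h. The F test over the 4 times also gave 0 members, against 0.00417% of probe sets, with a smallest adjusted p of 0.609 for MRPS23, followed by MRPS26, MRPL38, MRPL44 and MRPL39, and 0 members had an unadjusted p under 0.05 in it. Limits of 1.5-fold in both directions held the whole 95% interval for 58 of 58 members at 2 h, 58 of 58 at 6 h and 57 of 58 at 24 h. Over all 6765 genes this held for 95.3%, 94.9% and 93.1%. The exception at 24 h was MRPS36, whose interval ran from 1.03-fold to 1.64-fold.

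The single changes were small and split in direction. At unadjusted p under 0.05 there were 2 members at 2 h, against 8.28% of all genes, 3 at 6 h, against 8.81%, and 5 at 24 h, against 15%. At 24 h the mean was higher than at 20 min in 20 of 58 members, against 47.2% of all genes, and the median change was -0.02 log2, against -0.01 over all genes. This count was 34 with cyclic loess, 31 with centring on the brightest probe sets, 35 without pig 1 and 13 without pig 3, and it was 12 without the 20 min array and 13 without the 24 h array of pig 3. The median turned to 0.01 with either scaling and to 0.03 without pig 1, so no direction can be given for the group. A change of the same sign in every pig was seen as higher in 1 member, against 16.3% of all genes, and as lower in 12, against 21.1%.

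**Figure D1:**
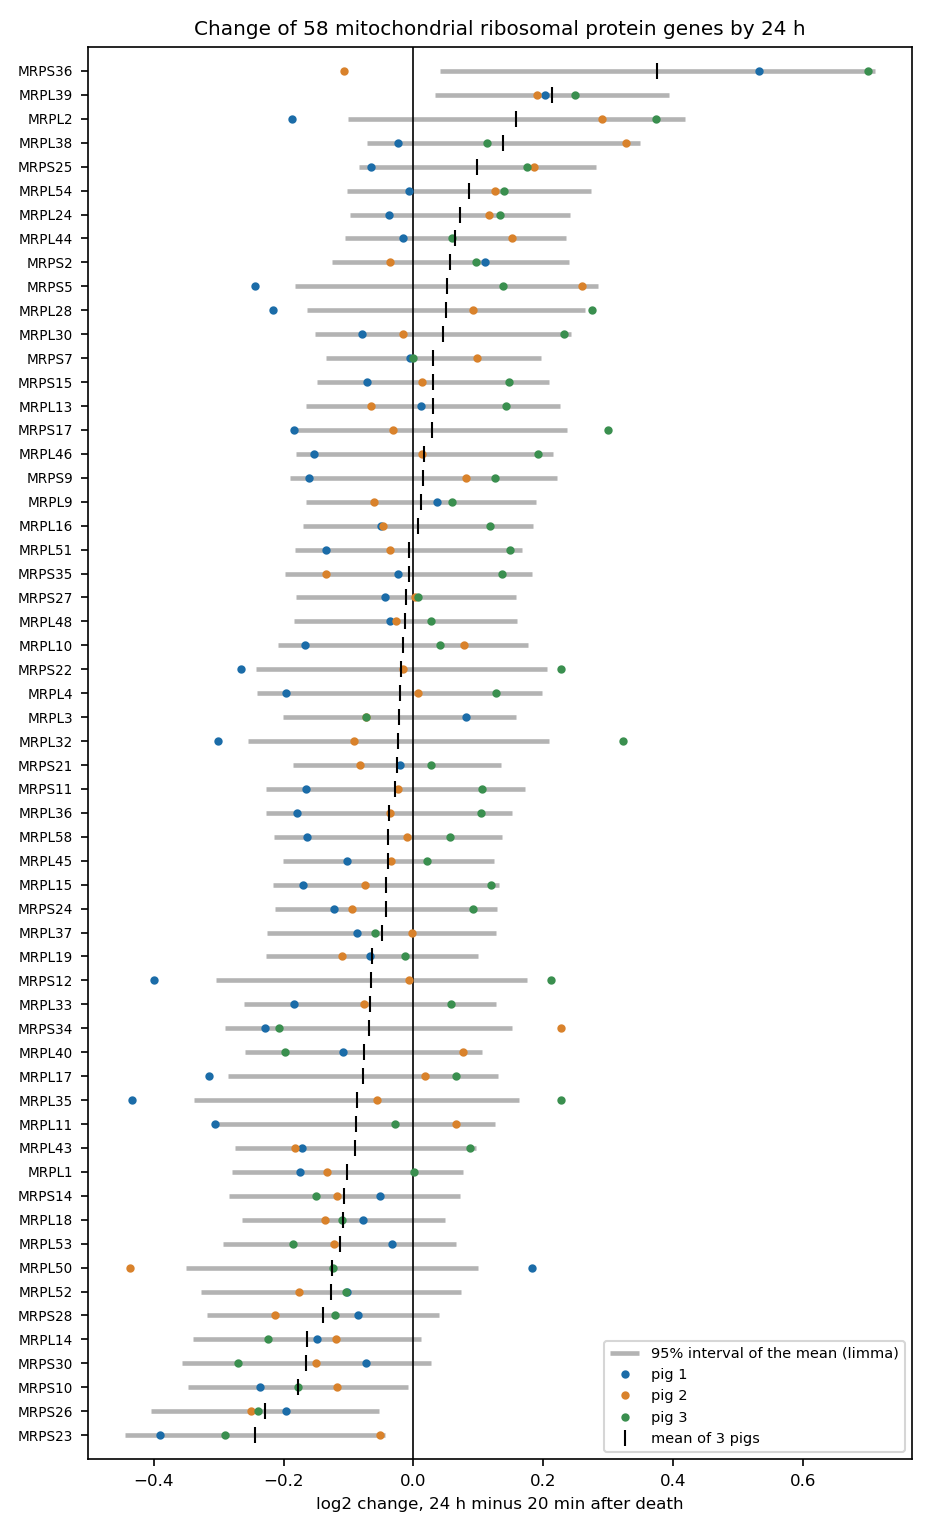
The log2 change at 24 h against 20 min is shown for each of the 58 genes, with a dot for each pig, a tick for the mean and a grey bar for the 95% interval of the limma fit. Most bars cover 0, and MRPS36 is the 1 gene whose bar passes 1.5-fold.

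MRPS36 had the highest mean change at 24 h. Although named for the small subunit, the protein was later placed in the 2-oxoglutarate dehydrogenase complex of the citrate cycle, where it holds the dihydrolipoamide dehydrogenase subunit. Its level in pigs 1, 2 and 3 was 7.998, 8.14 and 8.14 at 20 min and 8.02, 8.23 and 8.26 at 2 h. It was then 8.46, 7.96 and 8.42 at 6 h and 8.53, 8.03 and 8.84 at 24 h. Pigs 1 and 3 lay above all 20 min values at 6 h and at 24 h, while pig 2 lay below its own 20 min value. The mean change at 24 h was 0.38 ± 0.43 log2 (SD over 3 pigs), or 1.30-fold, with limma adjusted p = 0.340. MRPS36 itself changed by 0.53, -0.11 and 0.70 in pigs 1, 2 and 3. Over the same interval the gap between the 3′ and 5′ probe sets of EF1A, which reports on RNA integrity, changed by 0.38, -0.01 and 0.47. The same gap changed by 0.06, 0.01 and 0.04 for GAPDH and by 0.09, -0.23 and -0.04 for actin. At 24 h pig 2 had the lowest value in each control, and the changes of pigs 1 and 3 were largest in EF1A. For EF1A the gap changed by 0.08, 0.49 and 0.26 at 2 h and by 0.06, -0.04 and 0.21 at 6 h. At 2 h and 6 h the pigs did not rank as they did in the changes of MRPS36. The part of RNA quality in the changes of MRPS36 was not tested.

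MRPL39, a mitochondria-specific protein of the large subunit, was the 1 member with a higher value at 24 h in every pig. Its level was 9.26, 9.42 and 9.27 at 20 min, 9.36, 9.55 and 9.50 at 2 h, 9.23, 9.62 and 9.55 at 6 h and 9.46, 9.61 and 9.52 at 24 h in pigs 1, 2 and 3. All 24 h values lay above all 20 min values, which the choice of MRPL39 for its large change favours. The change was 0.21 ± 0.03 log2, or 1.16-fold, with limma adjusted p = 0.321. MRPL2, whose bacterial counterpart L2 is needed for peptide bond formation, had a change of 0.16 ± 0.30 at 24 h, with pig 1 at -0.19 and pigs 2 and 3 at 0.29 and 0.37. MRPL38, a mitochondria-specific protein of the central protuberance, had 0.14 ± 0.18. For MRPL2 and MRPL38 the pigs differed in sign.

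At the lower end at 24 h stood MRPS23, MRPS26, MRPS10 and MRPS30. Their selection as the extremes of this change favours the same sign in each pig and times without overlap. How many of all genes had times without overlap was not counted. MRPS26, a mitochondria-specific protein of the small subunit, had 9.98, 9.84 and 9.82 at 20 min, 9.79, 9.62 and 9.68 at 2 h, 9.76, 9.71 and 9.85 at 6 h and 9.78, 9.59 and 9.58 at 24 h. Each pig was lower at 24 h than at 20 min and the 2 groups did not overlap, with a change of -0.23 ± 0.03 log2 (1.17-fold, limma adjusted p = 0.294). MRPS23, also mitochondria-specific, had 6.02, 5.98 and 6.09 at 20 min, 6.10, 6.05 and 5.93 at 2 h, 5.96, 6.05 and 5.99 at 6 h and 5.63, 5.93 and 5.80 at 24 h. The 24 h values lay below all 20 min values, and the change was -0.24 ± 0.17 (limma adjusted p = 0.311).

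MRPS10, counterpart of a bacterial protein of the small subunit head, had 9.39, 9.45 and 9.44 at 24 h, against 9.62, 9.57 and 9.62 at 20 min. These groups did not overlap, and the change was -0.18 ± 0.06 (limma adjusted p = 0.367). MRPS30, which sits in the large subunit despite its name, had 7.42, 7.47 and 7.55 at 24 h, against 7.49, 7.62 and 7.82 at 20 min. Its groups overlapped, and the change was -0.16 ± 0.10 (limma adjusted p = 0.438).

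**Figure D2:**
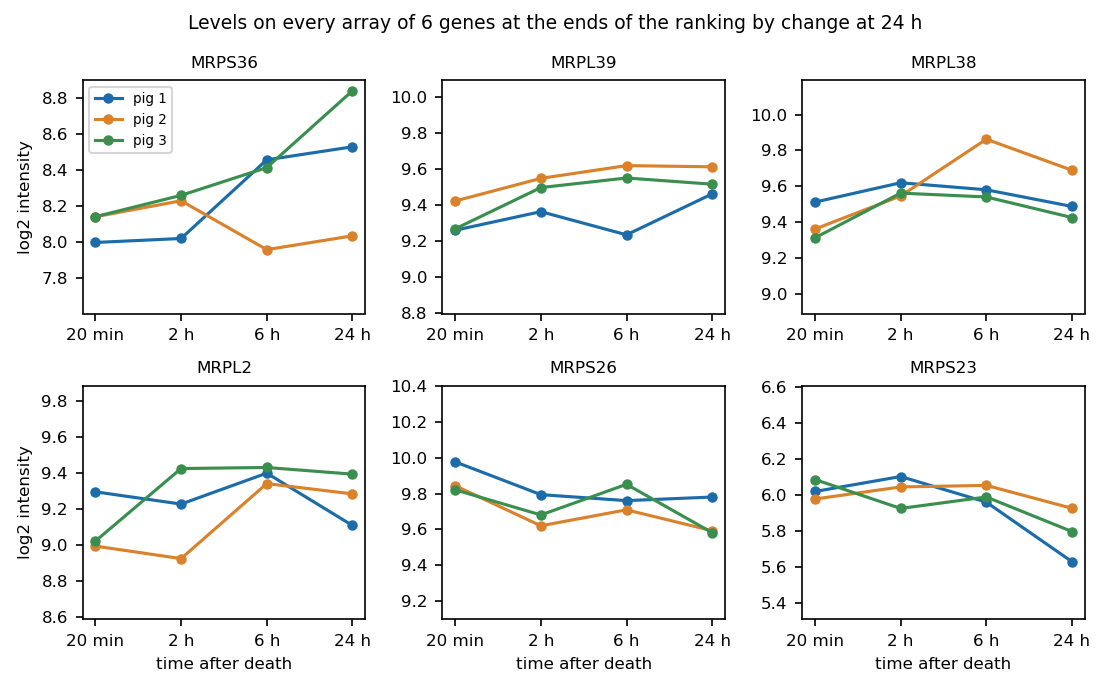
Log2 levels on all 12 arrays are shown for MRPS36, MRPL39, MRPL38, MRPL2, MRPS26 and MRPS23, with 1 line per pig over the times after death, each panel spanning the same height. MRPS36 parts the pigs from 6 h on, whereas MRPL39 and MRPS26 are shifted alike in each pig at 24 h.

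At 2 h, 22 of 58 members had a higher mean than at 20 min, against 47.5% of all genes, and the median change was -0.01. Without the 20 min array of pig 3 the median was -0.06, with 16 of 58 higher, and with cyclic loess 28 were higher. In every pig 7 members were higher, against 14% of all genes, and 13 were lower, against 16.8%. The highest changes were 0.18 ± 0.07 for MRPL38, 0.17 ± 0.08 for MRPS2, counterpart of bacterial S2, 0.15 ± 0.09 for MRPL44, which has a fold like that of ribonuclease III, and 0.15 ± 0.07 for MRPL39. The lowest were -0.20 ± 0.15 for MRPL52 and -0.14 ± 0.13 for MRPL51, both mitochondria-specific, -0.18 ± 0.04 for MRPL1, which forms the stalk beside the tRNA exit site, and -0.18 ± 0.04 for MRPS26. MRPL1 had 8.92, 9.08 and 9.08 at 2 h, against 9.14, 9.22 and 9.26 at 20 min, without overlap. MRPL52 had 9.29, 9.64 and 9.51 at 2 h, against 9.59, 9.67 and 9.78 at 20 min, and MRPS2 had 8.44, 8.68 and 8.38 at 2 h, against 8.21, 8.49 and 8.30 at 20 min. In these last 2 genes the times overlapped. All 8 named genes had the same sign in 3 of 3 pigs, which their selection as the extremes over these same pigs favours. Their limma adjusted p lay between 0.624 and 0.668.

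At 6 h the mean was higher in 36 of 58 members, against 48.7% of all genes, with a median of 0.02. Without pig 3 this was 24 of 58 with a median of -0.02, and the median was -0.01 without the 20 min array of pig 3. In every pig 8 members were higher, against 16% of all genes, and 6 were lower, against 17.8%. MRPL2 had 9.40, 9.34 and 9.43 at 6 h, against 9.30, 8.99 and 9.02 at 20 min. All 6 h values exceeded all 20 min values, with a change of 0.29 ± 0.16 log2 (1.22-fold, limma adjusted p = 0.540). MRPL38 had 9.58, 9.86 and 9.54 at 6 h and 9.51, 9.36 and 9.31 at 20 min, again without overlap, with a change of 0.27 ± 0.22 (limma adjusted p = 0.513). MRPL44 had 9.27, 9.22 and 9.23 at 6 h, against 9.21, 8.99 and 8.95 at 20 min, just without overlap, with a change of 0.19 ± 0.11 (limma adjusted p = 0.530). For MRPL2, MRPL38 and MRPL44 the lack of overlap is favoured by their selection as the highest changes at 6 h. MRPS36 followed with 0.18 ± 0.33. The lowest changes at 6 h were -0.20 ± 0.11 for MRPL52, -0.13 ± 0.12 for MRPL50, -0.13 ± 0.04 for MRPL18 and -0.12 ± 0.03 for MRPS30. The bacterial counterpart of MRPL18 binds 5S rRNA. The 3 comparisons share the 20 min arrays, so their values are not independent.

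Between the later times 0 of 58 members passed in limma's test, against 0% of probe sets for 6 h against 2 h and 0% for 24 h against 6 h. At 6 h against 2 h, 47 of 58 had a higher mean, against 55.7% of all genes, with a median change of 0.04, against 0.01 over all genes. By pig, 20, 36 and 50 of 58 were higher in pigs 1, 2 and 3, with medians of -0.02, 0.07 and 0.10, so pig 1 had the other sign. Over all genes 3172, 3668 and 3857 of 6765 were higher in these pigs. Their medians of -0.008, 0.02 and 0.03 had the same signs as those of the members. At 24 h against 6 h, 16 of 58 had a higher mean, against 45.6% of all genes, with a median of -0.05, against -0.01. Here 27, 15 and 20 of 58 were higher in pigs 1, 2 and 3, with medians of -0.005, -0.05 and -0.04. Over all genes 3188, 3248 and 3072 of 6765 were higher, with medians of -0.01, -0.006 and -0.02. The extremes of the first step were MRPL2 at 0.20 ± 0.21, MRPS17 at 0.15 ± 0.09, MRPS2 at -0.12 ± 0.16 and MRPL50 at -0.08 ± 0.01. Those of the second were MRPS36 at 0.19 ± 0.20, MRPL52 at 0.07 ± 0.12, MRPS23 at -0.22 ± 0.10 and MRPL14 at -0.18 ± 0.11. The value of MRPL52 is that of its brightest probe set. Its other sets were lower at 24 h than at 6 h, and the mean of its sets changed by -0.129. MRPL14 is the counterpart of bacterial L14, which faces the small subunit.

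Taken pig by pig, the group of 58 genes had changes of different sign. At 24 h, 7, 20 and 40 of 58 members were above the 20 min value of the same pig in pigs 1, 2 and 3, where the median change was -0.11, -0.04 and 0.08 log2. At 6 h these counts were 11, 33 and 48, with medians of -0.07, 0.02 and 0.10. At 2 h they were 20, 23 and 31, with -0.06, -0.04 and 0.01. Over all genes 2828, 3561 and 3302 of 6765 were higher at 24 h in pigs 1, 2 and 3, with medians of -0.04, 0.01 and -0.01. At 6 h the counts over all genes were 2957, 3600 and 3424, with medians of -0.02, 0.02 and 0.003. At 2 h they were 3157, 3344 and 3337, with -0.01, -0.002 and -0.004. Each pig has 1 array per time, so these differences between pigs have no replicate and were not tested. Across the 58 genes the changes at 24 h correlated with Pearson r = -0.12 between pigs 1 and 2, 0.20 between pigs 1 and 3 and 0.32 between pigs 2 and 3. Over all genes these were 0.12, 0.15 and 0.40. At 6 h the same pairs gave 0.25, 0.32 and 0.48 over the 58 genes and 0.13, -0.07 and 0.34 over all genes, and at 2 h 0.23, 0.13 and 0.19, against -0.02, -0.08 and 0.30. Genes share the arrays and their normalisation, so these values are descriptions.

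The proteins made on the mitochondrial ribosome join nuclear-encoded partners, whose genes were set beside those of the ribosome. Nuclear-encoded oxidative phosphorylation genes, chosen by symbol, had a median change at 24 h of 0.01, 0.16 and 0.26 in pigs 1, 2 and 3, with 58 of 60 higher on average and 0 past the threshold. Cytosolic ribosomal protein genes had -0.06, -0.08 and -0.11, with 10 of 63 higher and 0 past the threshold. The share of all genes with a higher mean at 24 h was 47.2%, and 0.00417% of probe sets passed. Over 3 pigs the median was 0.13 for oxidative phosphorylation and -0.08 for cytosolic ribosomal proteins, against -0.02 for the mitochondrial ribosome, and over the alternatives it lay between 0.08 and 0.22 for the first and between -0.10 and -0.05 for the second. The differences between these lists were not tested. Pig 3, with the highest medians for the mitochondrial ribosome and oxidative phosphorylation, also had the largest shift in non-fibre markers at 24 h. The macrophage and leukocyte mean changed by -0.38, -0.38 and -1.42 and the fibroblast and matrix mean by 0.12, -0.003 and -0.46 in pigs 1, 2 and 3. For smooth muscle and pericytes the changes were -0.03, 0.35 and -0.37, and for endothelium -0.0004, 0.27 and -0.30. In these 2 lists pig 2 thus moved almost as far the other way. The mean of the fibre markers changed by 0.005, 0.07 and 0.09. The part of any of these cells in the medians was not tested.

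**Figure D3:**
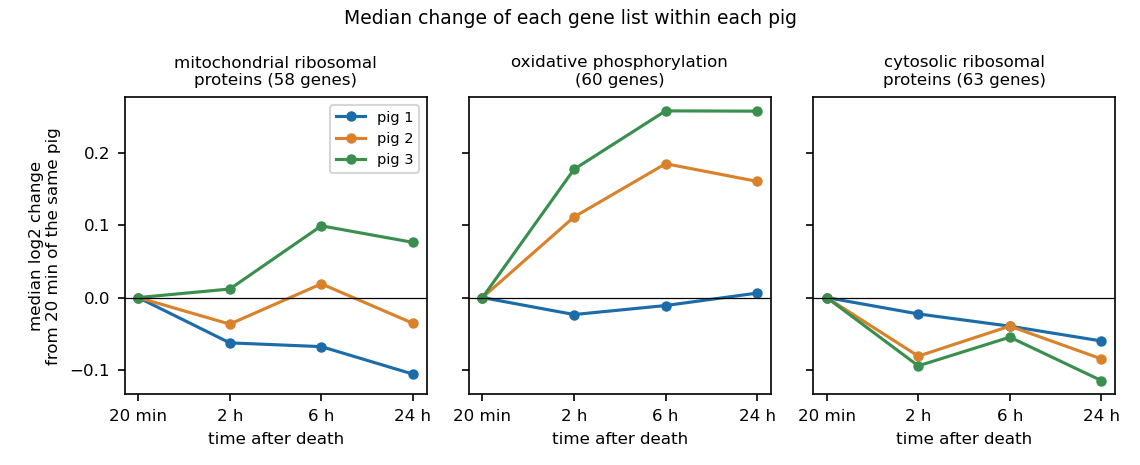
The median log2 change from the 20 min array of the same pig is plotted at each time for mitochondrial ribosomal protein, oxidative phosphorylation and cytosolic ribosomal protein genes, with 1 line per pig. At 24 h the mitochondrial ribosome medians of -0.11, -0.04 and 0.08 lie between those of the other lists in each pig except pig 1, where they are the lowest.

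The classes of the ribosome's proteins gave medians close to 0. For the 37 large subunit genes the median at 24 h was -0.04, with 12 higher and 25 lower, and for the 20 small subunit genes it was -0.02, with 7 higher and 13 lower. MRPS36 was counted in neither. The 33 members with a bacterial counterpart had a median of -0.02 and the 23 mitochondria-specific ones -0.04. Among proteins near the tunnel exit, where the nascent chain leaves, 5 of 8 were measured, with changes between -0.08 for MRPL17 and 0.21 for MRPL39. Of the stalk proteins that recruit translation factors 4 of 5 were measured, between -0.11 for MRPL53 and 0.09 for MRPL54. The 10 of 13 measured proteins around the decoding site and mRNA path had a median of 0.02 and ran from -0.18 for MRPS10 to 0.06 for MRPS2. Over the alternatives the median ran from -0.08 to 0.02 for the large and from -0.08 to 0.02 for the small subunit, so neither has a direction.

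Other genes of mitochondrial translation had 0 members past the threshold at any time. Of all probe sets 0% passed at 2 h, 0% at 6 h and 0.00417% at 24 h against 20 min. The list of translation, transcription and assembly factors held 48 symbols, older names of some genes included, and 26 were measured. At 24 h 13 had a higher and 13 a lower mean (median 0.001). The highest changes were 0.23 ± 0.28 for GFM1, the elongation factor that moves the ribosome along the mRNA, 0.19 ± 0.07 for HEMK1, which methylates release factors, and 0.18 ± 0.18 for TUFM, which brings aminoacyl-tRNA to the ribosome. The lowest were -0.20 ± 0.23 for TFB1M, a methyltransferase of the small subunit rRNA, -0.13 ± 0.09 for the assembly GTPase GTPBP10 and -0.13 ± 0.05 for MTERF3, a regulator of mitochondrial transcription and ribosome assembly. The limma adjusted p of these 6 lay between 0.380 and 0.514.

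Of 23 listed symbols of mitochondrial aminoacyl-tRNA synthetases and amidotransferase subunits, an older name included, 11 were measured. GARS and KARS, which also serve the cytosol, were among them. At 24 h 7 were higher and 4 lower, with QRSL1 at 0.17 ± 0.21, VARS2 at 0.14 ± 0.12 and FARS2 at 0.11 ± 0.19 as the highest. GATC at -0.20 ± 0.06, WARS2 at -0.08 ± 0.17 and GATB at -0.07 ± 0.10 were the lowest. QRSL1, GATB and GATC form 1 enzyme, the amidotransferase that makes glutaminyl-tRNA. Ribosomal proteins under other symbols had changes at 24 h of 0.14 ± 0.07 for PTCD3, -0.01 ± 0.06 for DAP3, -0.03 ± 0.12 for GADD45GIP1 and -0.08 ± 0.14 for CHCHD1. These were 4 of 6 listed symbols, of which ICT1 is an older name of the member MRPL58.

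The pigs differed from each other at single genes. In limma's F test of the pig terms, 13 of 58 members passed an adjusted p of 0.05, against 19.9% of all probe sets and 25.3% of all genes by their brightest probe set, so the share of members was near the background. The p-values measure the spread between portions of 1 animal, and each animal is 1 individual. Tests of 2 pigs gave 5 members without pig 1, 4 without pig 2 and 5 without pig 3. With all pigs kept but the 24 h portion of pig 3 dropped, 8 members passed. The range of the 3 pig means exceeded that of the 4 time means in 42 of 58 members, against 60.6% of all genes. The median of the first was 0.19 log2 and that of the second 0.13, against 0.20 and 0.16 over all genes.

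MRPL16 differed most between the pigs. Its bacterial counterpart L16 lies where tRNAs are held in the large subunit. The level in pig 1 was 9.55, 9.54, 9.50 and 9.50 at 20 min, 2 h, 6 h and 24 h. It was 9.31, 9.15, 9.33 and 9.26 in pig 2, and 8.80, 8.90, 8.90 and 8.92 in pig 3. The arrays of the 3 pigs did not overlap at any time, and pigs 1 and 3 differed by 0.64 log2, or 1.56-fold (limma F test adjusted p = 3.01e-04). The change of MRPL16 at 24 h against 20 min was 0.01 ± 0.10.

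MRPL13, counterpart of bacterial L13, an early binding protein of the large subunit, had 9.22, 9.31, 9.11 and 9.23 in pig 1. It had 9.65, 9.48, 9.58 and 9.59 in pig 2, and 9.67, 9.62, 9.79 and 9.81 in pig 3. Pig 1 was below both other pigs on every array, and the pig means ranged over 0.50 log2 (adjusted p = 0.00231 in the limma F test). MRPL37, a mitochondria-specific protein of the large subunit, had 10.34, 10.45, 10.43 and 10.25 in pig 1. Its level was 10.38, 10.27, 10.49 and 10.38 in pig 2, and 9.999, 9.99, 10.07 and 9.94 in pig 3. Here pig 3 was the low one (0.38 log2, adjusted p = 0.00373 in the limma F test).

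MRPL32, counterpart of bacterial L32, must be trimmed by the m-AAA protease before the ribosome assembles, as shown in yeast and mouse. Its level was 8.88, 8.77, 8.77 and 8.58 in pig 1. The values were 8.30, 8.35, 8.31 and 8.21 in pig 2, and 8.60, 8.69, 8.73 and 8.92 in pig 3. Pig 2 was below both other pigs on every array (0.46 log2, adjusted p = 0.00606 in the limma F test). The second probe set of MRPL32 had the same order, with pig 2 lower than pig 1 by a difference of -0.61 (adjusted p = 0.00457 in the limma F test). MRPS35, a mitochondria-specific protein of the small subunit, had 8.69, 8.71, 8.70 and 8.66 in pig 1. It had 9.08, 9.18, 9.05 and 8.94 in pig 2, and 8.99, 8.94, 9.05 and 9.12 in pig 3. In this gene pig 1 was the low one, by 0.37 against pig 2 (adjusted p = 0.00786 in the limma F test).

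**Figure D4:**
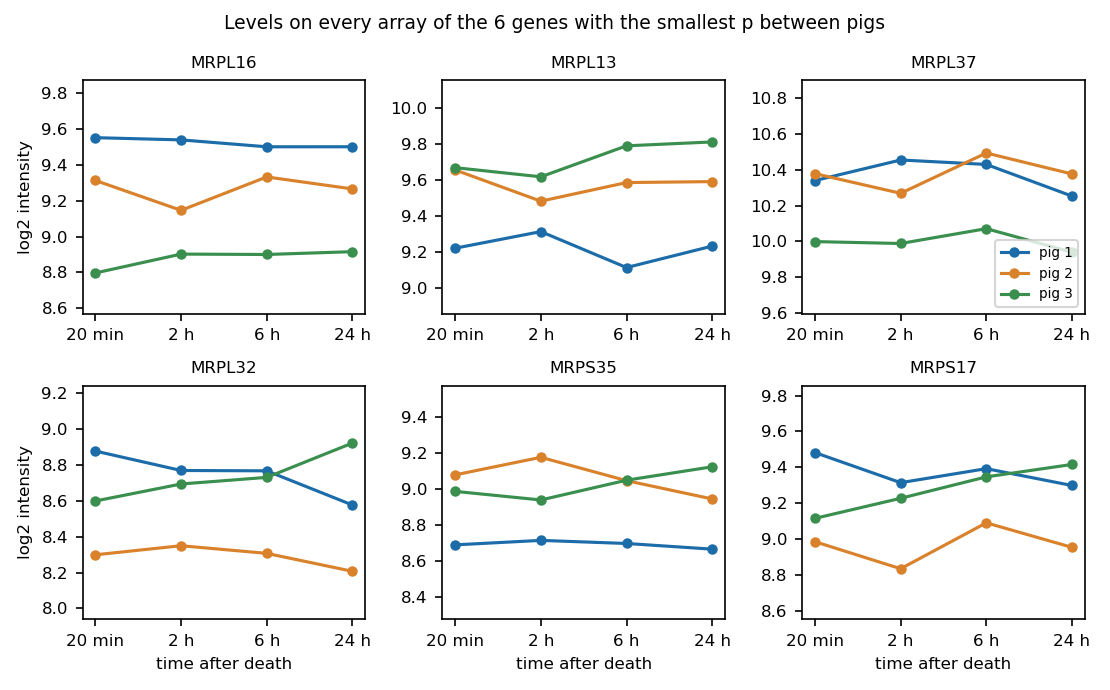
Log2 levels on all 12 arrays are shown for the 6 members with the smallest p between pigs, with 1 line per pig over the times after death. For MRPL16 the lines stay apart throughout, by 0.64 log2 between the means of pigs 1 and 3.

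The other 8 members that passed were MRPS17, MRPL9, MRPL19, MRPL15, MRPL10, MRPL58, MRPL43 and MRPS21. Their pig means ranged over 0.24 log2 for MRPS21 to 0.41 for MRPS17, with adjusted p between 0.0104 and 0.0476 in the limma F test. MRPS17, counterpart of bacterial S17, had 9.48, 9.31, 9.39 and 9.30 in pig 1. It had 8.99, 8.84, 9.09 and 8.95 in pig 2, and 9.12, 9.23, 9.35 and 9.42 in pig 3, so pig 2 was the lowest at each time. MRPL10 forms the base of the stalk, and MRPL58 is a peptidyl-tRNA hydrolase that frees stalled ribosomes. Among the 13, pig 1 was the highest in 4 genes and the lowest in 5, pig 2 the highest in 3 and the lowest in 5, and pig 3 the highest in 6 and the lowest in 3. No pig was the high or the low one throughout. The order of the 3 pigs was the same at all 4 times in 7 of the 13 genes and changed at some time in 6. The F test that chose these genes on the same arrays favours a steady order and pigs without overlap. The order was not counted over all genes. In MRPL32 and MRPS17 pig 1 was the highest up to 6 h and pig 3 at 24 h.

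**Figure D5:**
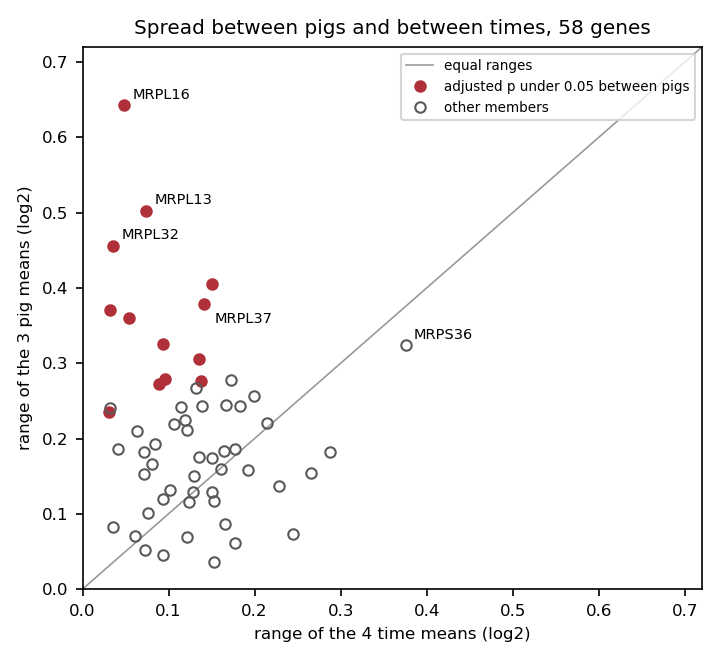
The range of the 3 pig means is plotted against the range of the 4 time means for each of the 58 genes, both in log2, with the line of equal ranges and filled points for the 13 genes past adjusted p 0.05 between pigs. In 42 genes the range between pigs is the larger one, and MRPS36 has the largest range over times.

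For 14 members more than 1 probe set was present. All 23999 probe sets together gave 1 call against 20 min, at 24 h. The 19 further sets, 4 of them among the dimmest 40%, showed 0 calls against 20 min. Their change at 24 h had the sign of the brightest set in 12 of 19 cases and ran from -0.56 to 0.25. The lowest belonged to the second set of MRPL52 (adjusted p = 0.157 in limma), whose brightest set was at -0.13 and remaining set at -0.22. For MRPL38 the sets gave 0.14 and 0.25, for MRPL2 0.16 and 0.10, for MRPL18 -0.11 and -0.25, for MRPL35 -0.09, -0.24 and -0.08 and for MRPS2 0.06 and 0.12. The signs differed for MRPL3, MRPL15, MRPL32, MRPL33, MRPL46, MRPS9 and MRPS12. Between pigs, a further set passed for MRPL32, for MRPL33 (adjusted p = 0.0264), whose brightest set did not (0.442), and for MRPL52 (0.0373, brightest set 0.0847), all in the limma F test. For MRPL15 and MRPL43 the brightest set passed and the second did not (0.0621 and 0.0874), and the order of the pigs differed between their sets.

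Some members hardly varied on any array. Named after their values were seen, MRPL45, which anchors the ribosome to the inner membrane, ranged over 0.17 log2 across the 12 arrays, MRPL53 over 0.19 and MRPS27 over 0.23. The widest ranges were 0.88 for MRPS36, 0.75 for MRPL16 and 0.71 for MRPL32, and the median range was 0.40. The median residual SD of the fit was 0.0798 over the members and 0.115 over all genes, which include dimmer probe sets.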

How the data were processed

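Biotin-labelled RNA of 12 muscle portions was put on porcine arrays, per the labels' protocols. The authors deposited 1 log2 intensity for each probe set, and the submitters' processing notes name RMA and affy. No version of either is used here. RMA equalises the arrays, so a change shared by all transcripts would not show. Signal over background is not given, and precision is limited by having 12 arrays.

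The symbols of GEO's annotation of the array may be outdated. The gene ID had the same RefSeq symbol (Sscrofa11.1) in 57 of 58 members; MRPS25 was not matched and MRPS12 is listed there as lncRNA. The 6 probe sets with several entries were left out. The array's build is not named, so no coordinates or sequences are given.

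One limma fit (R 4.3.3, limma 3.58.1, statmod 1.5.0) of all 23999 probe sets held time and pig as a fixed block, with two-sided p adjusted over all of them by Benjamini-Hochberg (6 residual and 5.67 prior degrees of freedom). The pigs pair the arrays by the design text and titles, and deviations from time means correlated with r of 0.409 to 0.656 within pigs. The model was tested on simulated data. Members and lists were chosen with earlier results of these data known. Named in full were the 4 highest and 4 lowest changes against 20 min, the 2 and 2 of later steps, the 5 smallest p of each F test and members with several probe sets. For other lists 3 and 3 were named. Exceptions are stated. Alternatives were no block or a random block, another filter, scaling, prior, weighting and probe set choice, and each pig left out. After seeing the data the 20 min and the 24 h array of pig 3 were also left out, each alone.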

Additional observations from a re-analysis of the deposited data

How the results depend on the processing

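In each alternative tried, 0 of 58 members passed in the comparisons of times and in the F test over times, without the replicate block included (smallest limma adjusted p of a member in any of them 0.182). The replicate block changed no call. Without a pig, the members that passed between pigs were 4 to 5, tests with fewer arrays and pigs. The count was 8 without the 24 h array of pig 3 and 11 to 18 with the other alternatives. The median at 24 h against 6 h was -0.0139 with cyclic loess and -0.00992 with centring on the brightest probe sets, against -0.0504, and at 2 h it was -0.0565 without the 20 min array of pig 3, against -0.0108. The cause was not tested. MRPL52 at 24 h against 6 h turned to -0.129 with the mean of its probe sets, since the sets other than the brightest were lower at 24 h. Named genes had been picked for large changes or small p in these same data, which favours the count that follows. Of 471 values of named genes and settings 465 kept their direction and side of the threshold, and 5 between-pig calls were lost with a pig left out: without pig 1 for MRPL13 (adjusted p = 0.297) and MRPS35 (0.841), without pig 2 for MRPL32 (0.966) and without pig 3 for MRPL16 (0.0516) and MRPL37 (0.956), all in the limma F test.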
